A study of Mus musculus with 6 samples.

Results

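The proteasome genes described here are the constitutive subunits of the mouse proteasome, its activators and inhibitor, and the factors that assemble it. They were taken by name from the deposited gene count table. Every protein-coding gene whose symbol begins with Psm, a letter from a to g and a digit was kept, leaving out the inducible subunit genes Psmb8, Psmb9 and Psmb10 and the genes of the inducible activator PA28, Psme1 and Psme2. The rule found 45 genes among the 54532 in the table. Of the 45, 43 had enough reads to be tested. CD8 magnetic beads were used to pull cells out of the marrow of CByB6F1 hybrid mice, and RNA of those cells was sequenced. All the mice were female, were 2 to 5 months old and had immune bone marrow failure. In that disease, T cells destroy the cells that form blood. In 3 pools (numbered 1 to 3) the mice had been given ruxolitinib, a drug that blocks JAK1 and JAK2, kinases of cytokine receptors. In 3 pools (numbered 4 to 6) they were untreated. Each pool joined cells of 2 to 3 mice of its group, so that differences between single mice inside a pool are averaged away. The dose and the duration are not given here.

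The proteasome is the chamber in which cells degrade proteins marked with ubiquitin. Its core, the 20S particle, stacks rings of alpha subunits, which form the gate, around rings of beta subunits, of which Psmb5, Psmb6 and Psmb7 carry the proteolytic sites. A 19S cap recognises ubiquitin, unfolds the substrate with a ring of ATPases and feeds it into the core, and other caps and an inhibitor can bind in its place. In cells exposed to interferon gamma, a cytokine that signals through JAK1 and JAK2, newly made cores take up Psmb9, Psmb8 and Psmb10 in place of Psmb6, Psmb5 and Psmb7, which gives the immunoproteasome of lymphocytes.

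Libraries held 13829808 to 14139605 counted reads in ruxolitinib pools and 15740514 to 17708196 in control pools, and haemoglobin genes took 13.4 to 22.6% of the reads in ruxolitinib pools and 0.178 to 0.258% in control pools. Of 17 CD8 T cell marker genes, all with reads in every group, 15 were lower with ruxolitinib (median log2 fold change -1.70), with a summed level of 1938 to 5522 CPM (counts scaled to library size) in ruxolitinib pools against 10680 to 13025 CPM in control pools. All 13 erythroid markers found in the table were higher (125268 to 245529 CPM against 1920 to 2750 CPM). All 14 macrophage markers were higher (8948 to 14799 CPM against 1159 to 1554 CPM). So were 11 of 12 B cell markers (1108 to 1770 CPM against 208 to 279 CPM, with Ms4a1 and Pax5 among those at 0 in control pools) and 9 of 13 granulocyte markers (9028 to 20951 CPM against 1666 to 6387 CPM). The same held for 8 of 9 stromal and endothelial markers (140 to 191 CPM against 34.4 to 41.5 CPM) and 6 of 7 plasmacytoid dendritic cell markers (summed level 299 to 348 CPM against 326 to 373 CPM, with Spib, Ly6d and Siglech at 0 in control pools). The markers of these lists called lower were Bst2 of the plasmacytoid dendritic cell list (-2.38 ± 0.22, adjusted p = 4.40e-05) and Prtn3 of the granulocyte list (-1.04 ± 0.38, adjusted p = 0.0417). The part of these shifts in the proteasome values below was not tested, and in bulk RNA fewer cells of a type and less RNA per cell cannot be told apart. Control pool 6 stood apart from control pools 4 and 5 in several proteasome genes. Its level was 2.40 times the mean of the other two in Psmg3, 2.11 times in Psmb5, 1.84 times in Psma6 and 1.60 times in Psmg4, and 0.412 times in Psma4, 0.558 times in Psmb7 and 0.574 times in Psmf1.

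Proteasome genes were mostly lower with ruxolitinib when libraries were scaled on all genes, though not when scaled on CD8 markers, and the activators Psme3 and Psme4, the inhibitor Psmf1 and the 19S scaffold gene Psmd1 were higher. Of the 43 genes tested, 30 were lower, 4 were higher and 9 did not pass an adjusted p of 0.05 in edgeR's quasi-likelihood test, beside 25.3% lower and 29.9% higher among all 13480 genes tested. Together the 45 genes took 0.350, 0.426 and 0.445% of the reads in ruxolitinib pools 1, 2 and 3, against 0.754, 0.781 and 0.781% in control pools 4, 5 and 6. The median log2 fold change (ruxolitinib over control) was -0.84 over the proteasome genes tested and 0.032 over all genes. In either direction 34 of the 43 passed, beside 55.2% of all genes. In 35 of the 43 the pools of the groups did not overlap, beside 66.0% of all genes. With every library scaled to its CD8 marker genes, which fell themselves, the median over the proteasome genes became 1.04. Then 16 of the 43 were higher and 0 lower by edgeR, beside 68.9% higher and 0.549% lower among all genes tested, and the median of all genes moved to 1.95. At an unadjusted p under 0.05, 0 proteasome genes were lower under that scaling. Standard errors were larger there (for Psma2 0.56, against 0.20 in the main fit), so a difference of a given size passed less easily. Levels below are RPKM, read counts scaled by the deposited gene length and by library size, and fold changes are given with their standard error.

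**Figure D1:**
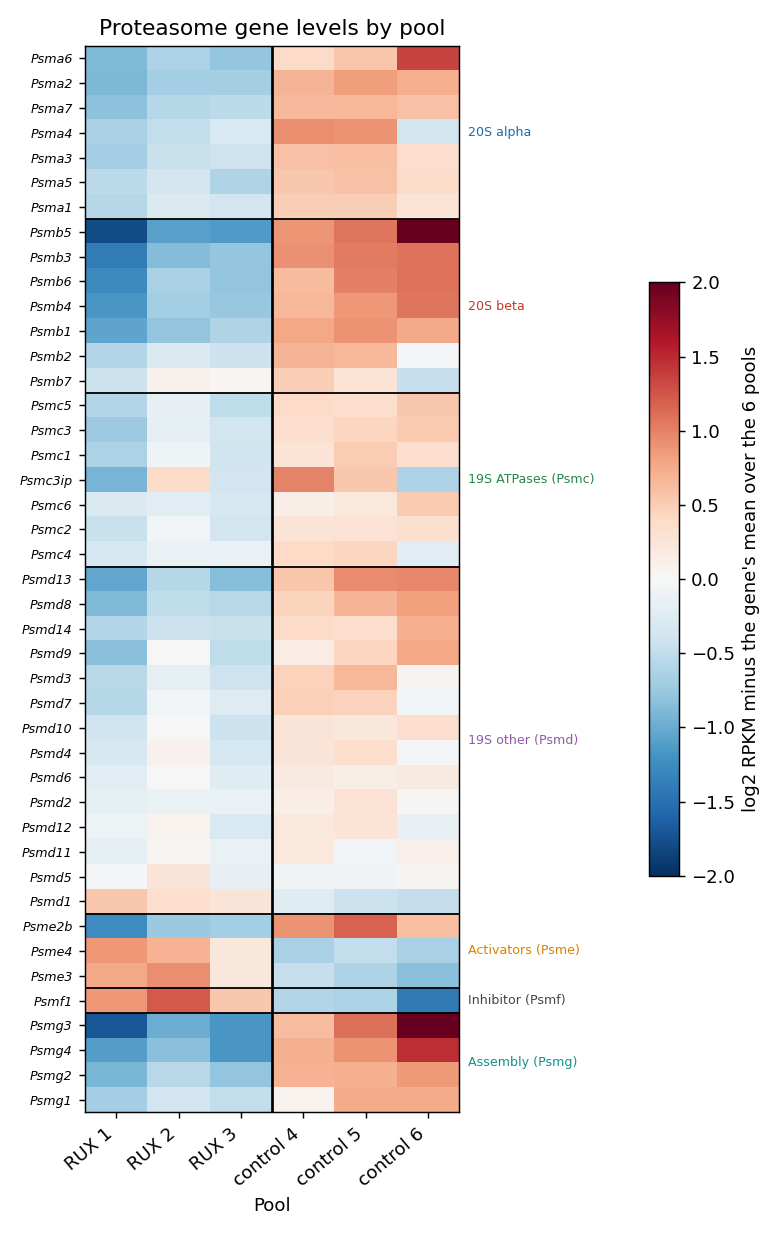
Level of each of the 43 tested genes (rows, grouped by subcomplex) in each pool (columns, ruxolitinib left of the black line, controls right), as log2 RPKM minus the gene's own mean over the 6 pools; red is above that mean and blue below it. Most rows are blue in the ruxolitinib pools and red in the control pools, and Psmd1, Psme3, Psme4 and Psmf1 run the other way. With CD8 marker scaling the median of the genes turns to 1.04, beside 1.95 over all genes tested.

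All 7 tested alpha genes were lower with ruxolitinib, beside 25.3% of all genes tested. Their log2 fold changes ran from -1.58 to -0.83 (median -1.08). With CD8 marker scaling their median was 0.85, beside 1.95 over all genes tested. Psma2 had 29.3, 34.0 and 34.5 RPKM in ruxolitinib pools 1, 2 and 3, against 87.3, 97.0 and 90.8 RPKM in control pools 4, 5 and 6 (log2 fold change -1.49 ± 0.20, adjusted p = 2.88e-04). Psma7 had 33.3, 39.6 and 41.0 RPKM in the ruxolitinib pools and 92.4, 93.0 and 88.3 RPKM in the control pools (-1.26 ± 0.20, adjusted p = 6.06e-04). Psma6 had 79.2, 94.9 and 85.7 RPKM in the ruxolitinib pools and 190.5, 214 and 372 RPKM in the control pools (-1.58 ± 0.28, adjusted p = 0.00127). In all 3 genes every ruxolitinib pool lay below every control pool, and control pool 6 was the highest of the controls in Psma6 alone. Psma3, whose product carries part of the gate that closes the ring, had 16.7, 19.7 and 20.1 RPKM in the ruxolitinib pools and 40.2, 40.4 and 33.9 RPKM in the control pools (-1.02 ± 0.19, adjusted p = 0.00164). Psma5 had 57.1, 63.5 and 53.7 RPKM in the ruxolitinib pools and 119, 123 and 105 RPKM in the control pools (-0.997 ± 0.19, adjusted p = 0.00166). Psma1 had 37.7, 45.5 and 42.6 RPKM in the ruxolitinib pools and 78.4, 78.1 and 66.8 RPKM in the control pools (-0.83 ± 0.20, adjusted p = 0.00565). These falls were smaller, again with no overlap between the groups. Psma4 had 31.4, 34.9 and 39.9 RPKM in the ruxolitinib pools and 93.8, 91.9 and 38.2 RPKM in the control pools (-1.08 ± 0.32, adjusted p = 0.0182). Its groups overlapped, with control pool 6 among the ruxolitinib pools. Psma4 lost its call on leaving out ruxolitinib pool 1 (adjusted p = 0.0817), ruxolitinib pool 2 (adjusted p = 0.0596), control pool 4 (adjusted p = 0.0542) and, separately, control pool 5 (adjusted p = 0.0588). Psma3 was the lowest and Psma6 the highest of the 7 per kilobase in both groups. The ratio of the highest to the lowest alpha gene was 4.73, 4.83 and 4.27 in ruxolitinib pools and 4.74, 5.29 and 10.99 in control pools. Psma8, which encodes an alpha subunit made in the testis in place of Psma7, was too low to test, with 16, 7 and 15 reads in ruxolitinib pools 1, 2 and 3, against 8, 2 and 5 reads in control pools 4, 5 and 6.

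Of 7 tested beta ring genes, 6 were lower and Psmb7 did not pass (median -1.72), beside 25.3% lower among all genes tested. With CD8 marker scaling their median was 0.13, beside 1.95 over all genes tested. Psmb5, which encodes the chymotrypsin-like catalytic subunit, had 51.5, 83.6 and 81.3 RPKM in ruxolitinib pools 1, 2 and 3, against 328, 375 and 743 RPKM in control pools 4, 5 and 6 (log2 fold change -2.74 ± 0.36, adjusted p = 2.71e-04). It was the largest fall of the tested proteasome genes, by less than its SE over Psmg3 (-2.69 ± 0.40). With the offsets for gene length described further on, Psmg3 (-2.61) fell more than Psmb5 (-1.96). The control pools themselves differed in Psmb5, with pool 6 far above the others. Without control pool 6 the log2 fold change of Psmb5 was -2.30 (adjusted p = 1.77e-04). An annotated microRNA, Mir686, shares 12.1% of the exon bases of Psmb5 on the same strand. Psmb6, the caspase-like catalytic subunit, had 37.5, 57.8 and 52.6 RPKM in the ruxolitinib pools and 142, 183 and 193 RPKM in the control pools (-1.80 ± 0.24, adjusted p = 3.07e-04). Psmb7, the trypsin-like catalytic subunit, had 15.2, 21.6 and 20.8 RPKM in the ruxolitinib pools and 28.7, 24.7 and 14.9 RPKM in the control pools (-0.24 ± 0.27, adjusted p = 0.459). The catalytic genes thus differed among themselves: Psmb5 and Psmb6 lay lower in every ruxolitinib pool than in any control pool, while the groups overlapped in Psmb7, 11.8% of whose exon bases lie opposite the gene Nek6. The overlap in Psmb7 came from control pool 6. Without that pool its log2 fold change was -0.49 and still did not pass (edgeR adjusted p = 0.0635). Among the structural beta genes, Psmb3 had 42.9, 61.8 and 65.9 RPKM in the ruxolitinib pools and 214, 233 and 241 RPKM in the control pools (-2.01 ± 0.24, adjusted p = 1.57e-04). Psmb4 had 73.9, 104 and 98.7 RPKM in the ruxolitinib pools and 263, 302 and 348 RPKM in the control pools (-1.72 ± 0.24, adjusted p = 3.40e-04). Psmb1 had 32.1, 38.3 and 43.7 RPKM in the ruxolitinib pools and 114, 124 and 112 RPKM in the control pools (-1.62 ± 0.22, adjusted p = 3.15e-04). No ruxolitinib pool of these genes reached a control pool, and pool 1 was the lowest in each. Psmb2 fell less, with 58.3, 71.7 and 65.5 RPKM in the ruxolitinib pools and 140.3, 139.8 and 85.1 RPKM in the control pools (-0.90 ± 0.24, adjusted p = 0.00989). Psmb11, the beta subunit gene of the thymus cortex, had 0, 1 and 0 reads in ruxolitinib pools 1, 2 and 3, against 0, 0 and 0 reads in control pools 4, 5 and 6 and was not tested. The ratio of the highest to the lowest of the 7 beta genes was 4.73 to 4.87 in ruxolitinib pools, where Psmb4 was highest on average, and 11.4, 15.2 and 49.96 in control pools, where Psmb5 was highest; Psmb7 was lowest on average in both groups.

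**Figure D2:**
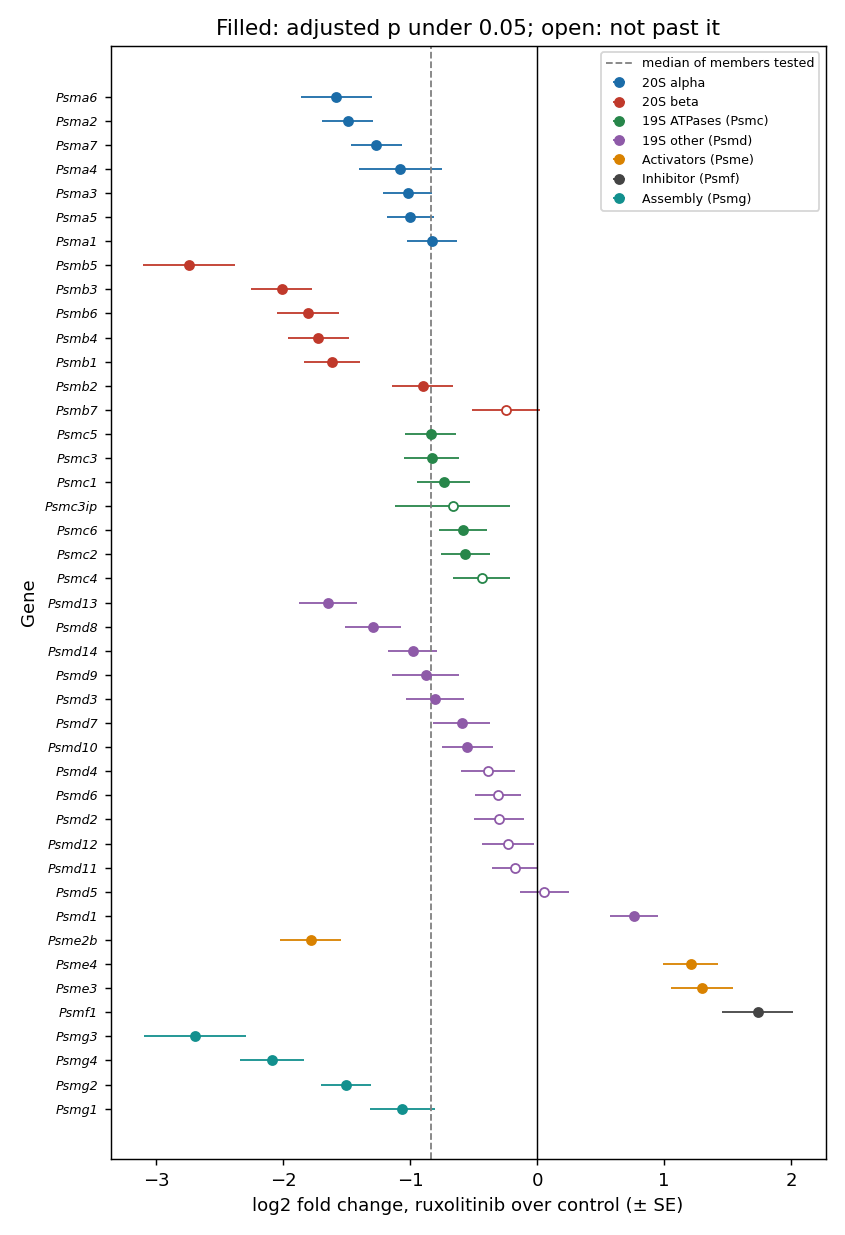
Log2 fold change of the 43 tested genes, ruxolitinib over control (horizontal axis, bars are the standard error), coloured by subcomplex; filled points passed an adjusted p of 0.05 and open points did not. Psmb5 and Psmg3 lie furthest left, Psmd1, Psme3, Psme4 and Psmf1 lie furthest right, and the dashed line is the median of the members tested, -0.84. With CD8 marker scaling that median is 1.04, beside 1.95 over all genes tested.

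The inducible catalytic genes, which the name rule leaves out, fell too, so each constitutive gene was set against its inducible counterpart within each pool, as a ratio of counts per kilobase that no library scaling can change. Psmb7 over Psmb10 was 0.312, 0.336 and 0.242 in ruxolitinib pools 1, 2 and 3, against 0.0665, 0.0482 and 0.0205 in control pools 4, 5 and 6. On the log2 scale this ratio was -1.77 ± 0.25 with ruxolitinib and -4.63 ± 0.88 in controls, a difference of 2.86 (SD, n = 3 each). The exact two-sided permutation p was 0.1, and 0.15 adjusted over the 3 pairs. Psmb6 over Psmb9 was 1.70, 1.75 and 1.15 in ruxolitinib pools, against 0.744, 0.872 and 0.524 in control pools, with log2 means of 0.59 ± 0.33 and -0.52 ± 0.38 and a difference of 1.11 (exact permutation p = 0.1, adjusted p = 0.15). In both pairs every ruxolitinib pool lay above every control pool, and 0.1 is the smallest p that 3 pools against 3 can give. Psmb5 over Psmb8 was 1.43, 1.52 and 1.04 in ruxolitinib pools, against 1.09, 1.14 and 2.21 in control pools, with a log2 difference of -0.10 (exact permutation p = 0.8, adjusted p = 0.8). The groups overlapped in that pair, and its difference was 0.23 without control pool 6 and 0.07 without ruxolitinib pool 3. The dropped genes themselves had log2 fold changes of -3.07 ± 0.32 (Psmb10), -2.93 ± 0.37 (Psmb9) and -2.51 ± 0.31 (Psmb8). With CD8 marker scaling these were -1.32 ± 0.57 for Psmb10 (adjusted p = 0.0325) and -1.23 ± 0.57 for Psmb9 (adjusted p = 0.0464). Psmb8 was at -0.77 ± 0.57 and did not pass (adjusted p = 0.211).

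**Figure D3:**
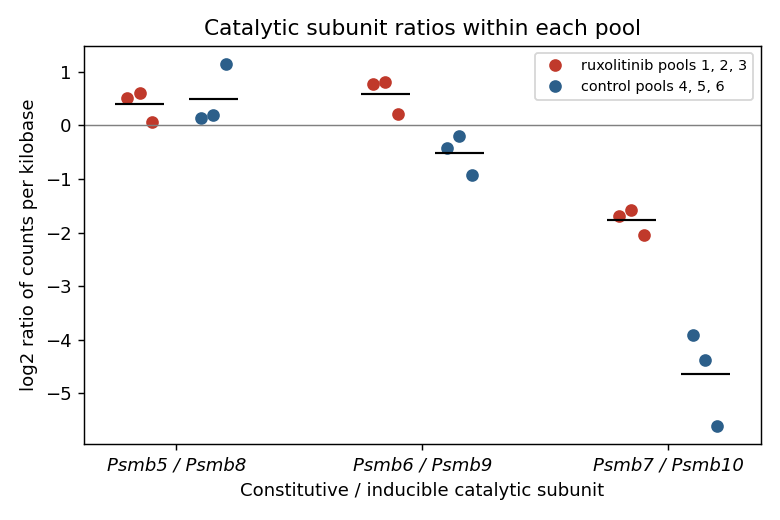
Log2 ratio of each constitutive catalytic gene to its inducible counterpart in every pool (points; red ruxolitinib, blue control; lines are means of 3 pools). Psmb6 over Psmb9 and Psmb7 over Psmb10 are higher in all ruxolitinib pools than in any control pool, and the groups overlap in Psmb5 over Psmb8.

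The Psmc genes other than Psmc3ip encode the ATPase ring of the 19S cap. Of the 7 Psmc genes tested, 5 were lower and 2 did not pass, beside 25.3% lower among all genes tested. Their median was -0.66. With CD8 marker scaling it was 1.31, beside 1.95 over all genes tested. Both medians are the values of Psmc3ip. Psmc5 had 52.9, 70.8 and 55.7 RPKM in ruxolitinib pools 1, 2 and 3, against 104, 101 and 116 RPKM in control pools 4, 5 and 6 (log2 fold change -0.84 ± 0.20, adjusted p = 0.00569). Psmc3 had 38.6, 56.8 and 49.8 RPKM in the ruxolitinib pools and 80.7, 86.1 and 91.8 RPKM in the control pools (-0.83 ± 0.21, adjusted p = 0.00856). Psmc1 had 46.1, 66.7 and 53.6 RPKM in the ruxolitinib pools and 86.3, 101 and 89.3 RPKM in the control pools (-0.74 ± 0.21, adjusted p = 0.0142). Each of these genes separated the groups with no overlap, with ruxolitinib pool 1 lowest; Psmc1 lost its call on leaving out ruxolitinib pool 1 (adjusted p = 0.0661) and, separately, control pool 5 (adjusted p = 0.0598). Psmc6 had 17.4, 18.2 and 16.7 RPKM in the ruxolitinib pools and 23.3, 24.6 and 30.5 RPKM in the control pools (-0.58 ± 0.19, adjusted p = 0.0260). Psmc2 had 16.6, 21.8 and 17.4 RPKM in the ruxolitinib pools and 27.0, 27.4 and 28.1 RPKM in the control pools (-0.57 ± 0.19, adjusted p = 0.0306). These calls were less firm: Psmc6 lost its call on leaving out ruxolitinib pool 1 (adjusted p = 0.0882), ruxolitinib pool 2 (adjusted p = 0.0559), ruxolitinib pool 3 (adjusted p = 0.0615) and, separately, control pool 5 (adjusted p = 0.0639), and Psmc2 lost its call on leaving out ruxolitinib pool 1 (adjusted p = 0.116), ruxolitinib pool 3 (adjusted p = 0.0735), control pool 4 (adjusted p = 0.0672) and, separately, control pool 5 (adjusted p = 0.0864). Psmc4 (42.0 ± 3.63 RPKM in ruxolitinib pools and 56.9 ± 13.3 RPKM in control pools, SD, n = 3 each; -0.44 ± 0.22, adjusted p = 0.123) did not pass, and passed on leaving out control pool 6 (adjusted p = 0.0107). The rule also takes Psmc3ip, which is named for binding the product of Psmc3 and is known for a role in meiotic recombination rather than in the proteasome. It had 2.17, 5.39 and 3.16 RPKM in the ruxolitinib pools and 8.25, 6.01 and 2.71 RPKM in the control pools (-0.66 ± 0.45, adjusted p = 0.236), and passed on leaving out control pool 6 (adjusted p = 0.0408). Without Psmc3ip and Psme2b, a copy of Psme2 described further on, 29 of the 41 tested proteasome genes were lower and 4 higher. The groups of Psmc3ip overlapped, and 21.2% of its exon bases lie opposite Mlx.

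The other 19S genes were split. Of 14 Psmd genes, 7 were lower, Psmd1 was higher and 6 did not pass (median -0.47). Among all genes tested 25.3% were lower and 29.9% higher. With CD8 marker scaling the Psmd median was 1.48, beside 1.95 over all genes tested. Psmd13, a lid subunit gene with 10.1% of its exon bases opposite Sirt3, had 26.7, 37.0 and 30.6 RPKM in ruxolitinib pools 1, 2 and 3, against 80.7, 106 and 108 RPKM in control pools 4, 5 and 6 (log2 fold change -1.64 ± 0.23, adjusted p = 3.49e-04). Psmd8, another lid gene, had 39.7, 51.8 and 50.02 RPKM in the ruxolitinib pools and 99.4, 117 and 130.01 RPKM in the control pools (-1.29 ± 0.22, adjusted p = 9.73e-04). Psmd14, whose product is the deubiquitinase that strips ubiquitin from substrates, had 22.9, 25.7 and 25.3 RPKM in the ruxolitinib pools and 45.0, 44.0 and 56.9 RPKM in the control pools (-0.98 ± 0.19, adjusted p = 0.00221). Every ruxolitinib pool of these genes lay below every control pool. Psmd3, a lid gene, had 25.9, 33.2 and 28.5 RPKM in the ruxolitinib pools and 52.3, 60.5 and 39.7 RPKM in the control pools (-0.80 ± 0.23, adjusted p = 0.0142), and lost its call on leaving out ruxolitinib pool 1 (adjusted p = 0.0626) and, separately, control pool 5 (adjusted p = 0.0695). Psmd7, the partner of Psmd14, was called as well (34.6 ± 6.06 RPKM in ruxolitinib pools and 52.3 ± 10.3 RPKM in control pools, SD, n = 3 each; -0.59 ± 0.23, adjusted p = 0.0481), and of the alternatives that leave out 1 pool it kept the call without control pool 6 alone, with adjusted p = 0.00856; the others gave adjusted p = 0.0523 to 0.176. Against these, Psmd1, one of the large scaffold subunits of the base, had 12.3, 10.6 and 10.1 RPKM in ruxolitinib pools 1, 2 and 3, against 7.11, 6.27 and 6.03 RPKM in control pools 4, 5 and 6 (log2 fold change 0.76 ± 0.19, adjusted p = 0.00683). It was higher in every ruxolitinib pool than in any control pool, and other genes share 7.61% of its exon bases. Psmd2, the other large scaffold gene, did not pass (-0.30 ± 0.20, adjusted p = 0.218). Psmd4, a ubiquitin receptor gene, had 45.4, 60.2 and 44.8 RPKM in the ruxolitinib pools and 68.0, 72.7 and 56.0 RPKM in the control pools (-0.39 ± 0.21, adjusted p = 0.150). The lid genes Psmd6 (-0.31 ± 0.18), Psmd11 (-0.17 ± 0.18) and Psmd12 (-0.23 ± 0.20) did not pass either. Over the 14 genes the log2 fold changes ran from -1.64 to 0.76.

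Psmg1 and Psmg2 encode one chaperone pair and Psmg3 and Psmg4 another, which together build the alpha ring. All 4 were lower (median -1.80), beside 25.3% of all genes tested. With CD8 marker scaling their median was 0.10, beside 1.95 over all genes tested. Psmg3 had 1.75, 2.89 and 2.56 RPKM in ruxolitinib pools 1, 2 and 3, against 8.79, 12.3 and 25.4 RPKM in control pools 4, 5 and 6 (log2 fold change -2.69 ± 0.40, adjusted p = 5.01e-04), and control pool 6 was well above the other controls. Without that pool the value was -2.15 (adjusted p = 3.36e-04). Psmg4 had 26.9, 32.5 and 25.9 RPKM in the ruxolitinib pools and 94.2, 107 and 161 RPKM in the control pools (-2.09 ± 0.25, adjusted p = 1.74e-04). Psmg2 had 17.5, 22.4 and 19.1 RPKM in the ruxolitinib pools and 53.3, 54.2 and 59.9 RPKM in the control pools (-1.51 ± 0.20, adjusted p = 2.52e-04). No ruxolitinib pool reached a control pool in any of them, and another gene on the same strand shares 9.68% of the exon bases of Psmg3. Psmg1 had 7.46, 9.22 and 8.51 RPKM in the ruxolitinib pools and 12.5, 19.96 and 20.1 RPKM in the control pools (-1.06 ± 0.25, adjusted p = 0.00597). Pomp, which encodes the factor that matures the beta ring and lies outside the name rule, had 18.5, 26.0 and 23.3 RPKM in the ruxolitinib pools and 51.6, 60.4 and 69.0 RPKM in the control pools (-1.42 ± 0.23, adjusted p = 6.80e-04). Psmd5, Psmd9 and Psmd10 encode chaperones that assemble the base of the cap and leave it before it is complete. Psmd9 had 4.30, 7.67 and 5.40 RPKM in the ruxolitinib pools and 8.46, 10.3 and 13.1 RPKM in the control pools (-0.88 ± 0.26, adjusted p = 0.0178), lost its call on leaving out ruxolitinib pool 1 (adjusted p = 0.0818) and, separately, ruxolitinib pool 3 (adjusted p = 0.0528), and has 25.5% of its exon bases opposite a gene of unknown function. Psmd10, known as gankyrin, had 19.03, 24.8 and 18.5 RPKM in the ruxolitinib pools and 29.9, 29.3 and 31.97 RPKM in the control pools (-0.55 ± 0.20, adjusted p = 0.0403), and lost its call on leaving out ruxolitinib pool 1 (adjusted p = 0.129), ruxolitinib pool 3 (adjusted p = 0.104), control pool 4 (adjusted p = 0.0815) and, separately, control pool 5 (adjusted p = 0.0898). Psmd5 had a value of 0.058 ± 0.19, adjusted p = 0.809, with overlapping groups, and -0.066 without ruxolitinib pool 2. With CD8 marker scaling Psmd5 was at 2.001 (adjusted p = 0.00141), beside a median of 1.95 over all genes tested.

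The activator genes Psme3 and Psme4 and the inhibitor gene Psmf1 rose, and Psme2b fell. Psme3, which encodes PA28 gamma, an activator of the core in the nucleus that does not need ubiquitin, had 126, 142 and 87.4 RPKM in ruxolitinib pools 1, 2 and 3, against 54.2, 48.5 and 41.8 RPKM in control pools 4, 5 and 6 (log2 fold change 1.30 ± 0.25, adjusted p = 0.00172). Psme4, which encodes PA200, a large cap known for degrading acetylated histones, had 10.2, 9.16 and 6.59 RPKM in ruxolitinib pools 1, 2 and 3, against 3.61, 4.02 and 3.60 RPKM in control pools 4, 5 and 6 (log2 fold change 1.21 ± 0.22, adjusted p = 0.00128). In both genes the lowest ruxolitinib pool was pool 3, which still lay above all controls. Pool 3 was also the ruxolitinib pool with the highest sum of CD8 markers, 5522 CPM, and a link between these values was not tested. Psmf1, which encodes PI31, a protein known to inhibit the core in the test tube and to carry proteasomes along axons in flies and mice, had 21.2, 27.2 and 16.9 RPKM in ruxolitinib pools 1, 2 and 3, against 7.72, 7.50 and 4.36 RPKM in control pools 4, 5 and 6 (log2 fold change 1.74 ± 0.28, adjusted p = 7.02e-04). The lowest of its ruxolitinib pools lay above every control pool. The other PA28 genes, which the rule drops, were lower, with Psme1 at 64.9, 76.9 and 95.0 RPKM in the ruxolitinib pools and 338, 370.4 and 489 RPKM in the control pools (-2.34 ± 0.26) and Psme2 at 18.96, 39.7 and 41.6 RPKM in the ruxolitinib pools and 257, 250.1 and 263 RPKM in the control pools (-2.94 ± 0.32). With CD8 marker scaling neither passed, at -0.54 ± 0.57 for Psme1 (adjusted p = 0.388) and -1.16 ± 0.57 for Psme2 (adjusted p = 0.0599). With that scaling Psme2b was at 0.087 (adjusted p = 0.894), beside a median of 1.95 over all genes tested. Psme3 over Psme1, per kilobase, was 1.94, 1.84 and 0.920 in ruxolitinib pools and 0.160, 0.131 and 0.0855 in control pools. Psme2b, a short gene listed as a second copy of Psme2, had 44.9, 64.1 and 66.8 RPKM in the ruxolitinib pools and 199, 242 and 163 RPKM in the control pools (-1.78 ± 0.24, adjusted p = 3.02e-04), and reads could be shared between it and Psme2.

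**Figure D4:**
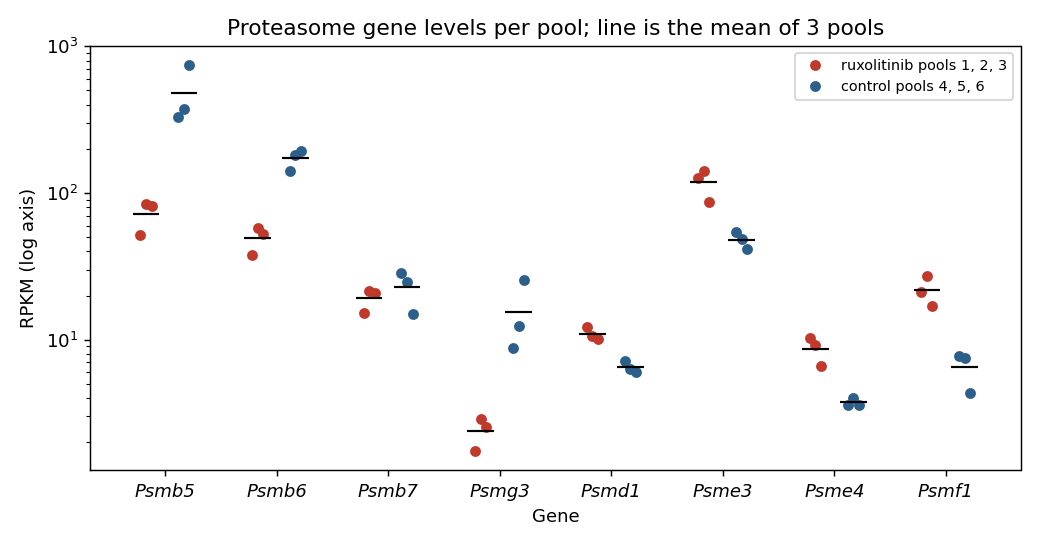
RPKM in every pool on a log axis for the 3 constitutive catalytic genes, the assembly factor gene Psmg3, the scaffold gene Psmd1, the activators Psme3 and Psme4 and the inhibitor Psmf1 (points; red ruxolitinib, blue control; lines are means of 3 pools). Psmd1, Psme3, Psme4 and Psmf1 are higher in all ruxolitinib pools, Psmb5, Psmb6 and Psmg3 are higher in all control pools, and Psmb7 overlaps. Under CD8 marker scaling Psmb5 and Psmg3 stayed below 0 without passing and Psmb6 turned to 0.046, beside a median of 1.95 over all genes tested.

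Levels per kilobase were also summed over each subcomplex. The alpha genes together reached 286, 332 and 318 RPKM in ruxolitinib pools 1, 2 and 3 and 702, 738 and 796 RPKM in control pools 4, 5 and 6, a ratio of group means of 0.419. The ratio was lower for the beta genes, 0.271, and for the Psmg genes, 0.281, and higher for the Psmc genes, 0.611, and the Psmd genes, 0.5996. The Psme genes, whose members went in both directions, had a ratio of 0.733. Only Psme2b was lower among them, with group means of 58.6 RPKM with ruxolitinib and 201 RPKM in controls. Psme3 (118 and 48.1 RPKM) and Psme4 (8.66 and 3.74 RPKM) were higher with ruxolitinib. For Psmf1 alone the ratio was 3.34. These ratios are for libraries scaled on all genes. With CD8 marker scaling the median log2 fold change was 0.85 for alpha, 0.13 for beta and 0.10 for Psmg genes. The median was 1.31 for Psmc and 1.48 for Psmd genes, beside 1.95 over all genes tested. Medians with offsets for gene length are given further on. The 5 dropped genes summed to 439, 621 and 811 CPM in ruxolitinib pools 1, 2 and 3, against 3453, 3798 and 5047 CPM in control pools 4, 5 and 6. These sums are not scaled by gene length and cannot be set against the RPKM sums above.

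Most genes for transcription factors that act on proteasome genes were higher with ruxolitinib. NFE2L1 is the factor that raises proteasome gene transcription when the proteasome is inhibited, and NFE2L2 does so under oxidative stress. Both pair with small MAF proteins to bind the antioxidant response element. The small MAF proteins are also partners of the erythroid factor NF-E2. Of 8 genes for these factors and their processing, 5 were higher and none was lower (median 1.42). Among all genes tested 29.9% were higher and 25.3% lower. Nfe2l1 had 24.7, 26.6 and 19.7 RPKM in the ruxolitinib pools and 12.8, 12.1 and 12.3 RPKM in the control pools (0.93 ± 0.19, adjusted p = 0.00281). Nfe2l2 had 19.5, 14.6 and 10.7 RPKM in the ruxolitinib pools and 4.13, 4.08 and 3.77 RPKM in the control pools (1.90 ± 0.25, adjusted p = 2.72e-04). Mafk (2.24 ± 0.27, adjusted p = 1.73e-04), Mafg (1.93 ± 0.27, adjusted p = 3.74e-04) and Maff (2.20 ± 0.49) were higher too, with every ruxolitinib pool of Nfe2l1 and Nfe2l2 above every control pool. Ddi2, the protease that releases NFE2L1 from the membrane of the endoplasmic reticulum, did not pass (0.53 ± 0.27, adjusted p = 0.119).

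The start regions of 4 genes are shown because they hold, or lack, the core of the element that these factors bind and belong to genes that moved in opposite directions. Each runs from 100 bases before to 20 bases after the RefSeq transcription start (GRCm38.p6), 5′ to 3′ on the gene's strand, and capitals mark the core TGACNNNGC or its reverse complement GCNNNGTCA. Psmb5 lies at chr14:54617976-54618095 (minus strand), Psmb6 at chr11:70525257-70525376 (plus strand), Psme4 at chr11:30771675-30771794 (plus strand) and Psme3 at chr11:101316113-101316232 (plus strand).
Psmb5: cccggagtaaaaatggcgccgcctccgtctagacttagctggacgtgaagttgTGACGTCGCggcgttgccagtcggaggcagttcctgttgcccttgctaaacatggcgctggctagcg
Psmb6: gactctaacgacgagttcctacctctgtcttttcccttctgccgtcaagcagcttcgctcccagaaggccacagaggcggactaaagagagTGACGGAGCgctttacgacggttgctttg
Psme4: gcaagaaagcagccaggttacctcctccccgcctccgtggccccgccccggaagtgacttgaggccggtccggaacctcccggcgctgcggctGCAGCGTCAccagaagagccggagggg
Psme3: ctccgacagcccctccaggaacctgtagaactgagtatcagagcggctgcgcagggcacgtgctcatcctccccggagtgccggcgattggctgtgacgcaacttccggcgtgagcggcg
Psmb5 and Psmb6 were lower and Psme4 was higher with ruxolitinib, and all 3 carry the core close to the start, while Psme3, which was higher, holds no match in this window. In the full window of 300 bases (250 before the start and 50 after it), the core on either strand was in 6 of the 37 proteasome genes with a RefSeq window, namely Psmb5, Psmb6, Psmc6, Psmd9, Psmd12 and Psme4, and in 12.4% of all 32851 windows. The GAS element TTCNNNGAA, a site of STAT factors, which act downstream of the JAK kinases and whose letters read the same on both strands, was in Psmd2 and Psmg1 of the 37 genes, in the dropped gene Psmb8, and in 8.30% of all windows. The 37 genes have 39 windows, and a gene was counted if any of its windows matched. Counts of genes and shares of all windows are thus in unlike units. These matches are letters in a window and were not tested as sites.

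Proteins that bind the proteasome but lie outside the name rule showed no common direction. Of 18 such genes found in the table, 4 were higher, 3 were lower and 11 did not pass (median 0.17), beside 29.9% higher and 25.3% lower among all genes tested. The lower genes were Pomp, Uchl5, a deubiquitinase of the cap (-0.92 ± 0.19, adjusted p = 0.00295), and Sem1, a small lid subunit (-1.21 ± 0.30, adjusted p = 0.00753). Zfand5 (0.78 ± 0.21), Midn (0.95 ± 0.27) and Ipo9 (0.66 ± 0.21), chosen for mention after their values were seen, were among the genes that were higher. Adrm1, which encodes the ubiquitin receptor of the cap, had 17.5, 22.8 and 20.7 RPKM in the ruxolitinib pools and 31.7, 31.998 and 22.3 RPKM in the control pools and did not pass (-0.50 ± 0.22, adjusted p = 0.0779), but passed on leaving out control pool 6 (adjusted p = 0.0118). Of 6 genes for ubiquitin and its activating enzymes 3 were lower, among them Rps27a (-1.57 ± 0.46, adjusted p = 0.0169) and Uba1 (-0.56 ± 0.21, adjusted p = 0.0477). Rps27a lost its call on leaving out ruxolitinib pool 1 (adjusted p = 0.0666) and, separately, ruxolitinib pool 2 (adjusted p = 0.0728). Uba1 lost its call on leaving out ruxolitinib pool 1 (adjusted p = 0.157), ruxolitinib pool 2 (adjusted p = 0.141), control pool 4 (adjusted p = 0.0948), control pool 5 (adjusted p = 0.158) and, separately, control pool 6 (adjusted p = 0.050003). Ubb, which encodes polyubiquitin, had 946, 1185 and 726 RPKM in the ruxolitinib pools and 922, 959 and 622 RPKM in the control pools (0.19 ± 0.29, adjusted p = 0.589).

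Fold changes ran with gene length in these libraries, among proteasome genes and beyond them. Across all genes tested, the median log2 fold change was -0.93 in the shortest of 10 equal groups by length and 0.52 in the longest (Spearman rho of length and fold change 0.26 across 13480 genes), and across the 43 proteasome genes rho was 0.51. These points share the same 6 libraries and are not independent. The median deposited length was 2808 bases in the 43 genes and 3996 bases in all genes. Psmf1, Psme4 and Psmd1 are long (6441, 8382 and 7265 bases), Psme3 is not (2949 bases), and Psmg4, Psme2b and Psmb5 are the shortest of the 43 (555, 837 and 899 bases). With offsets for length added to the fit, an alternative chosen after seeing the data, 25 proteasome genes were lower and 3 higher, beside 26.5% lower and 27.7% higher among all genes tested. Psmf1 (1.45), Psme3 (1.39) and Psme4 (0.80) stayed called, and Psmd1 did not pass (0.35, adjusted p = 0.120). Psmb2, Psmc1, Psmc5, Psmd7 and Psmd10 also lost their calls, with adjusted p of 0.0794 (Psmc5) to 0.571 (Psmd10). The falls of Psmb5 (-1.96), Psmg4 (-1.27), Psmg2 (-0.68) and Psme2b (-0.95) became smaller and stayed called. Psmg3 (-2.61) then had a larger fall than Psmb5. The median of the Psmg genes moved from -1.80 to -0.97, and that of the beta genes from -1.72 to -1.40. With the offsets the median was -1.01 for alpha, -0.42 for Psmc and -0.40 for Psmd genes, beside -0.047 over all genes tested.

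**Figure D5:**
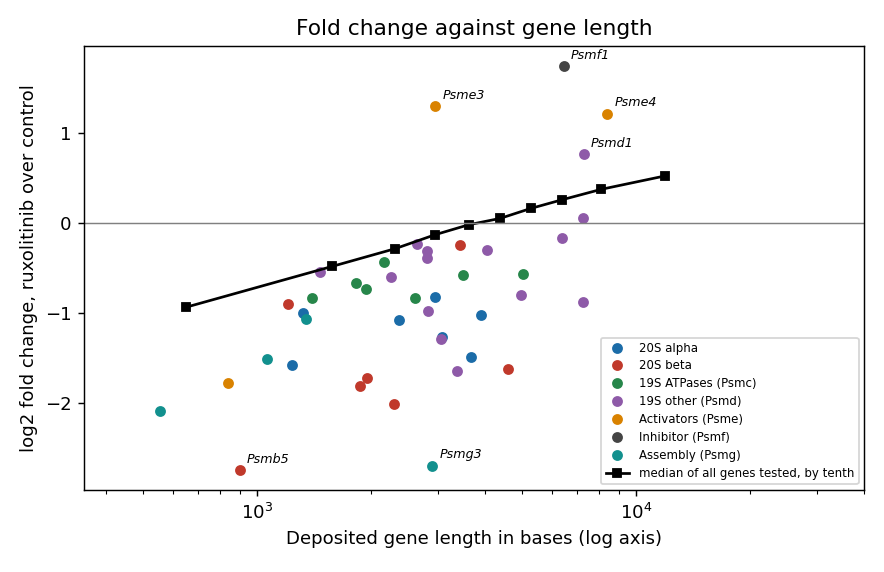
Log2 fold change, ruxolitinib over control, against deposited gene length on a log axis for the 43 tested genes (points, coloured by subcomplex), with the median of all genes tested in each of 10 equal groups by length (black squares at the group's median length). The medians run from -0.93 to 0.52 from the shortest to the longest group, most proteasome genes lie below that line, and Psmd1, Psme3, Psme4 and Psmf1 lie above it. With CD8 marker scaling the median of the 43 genes turns to 1.04, beside 1.95 over all genes tested.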

How the data were processed

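The authors deposited raw read counts per gene, without normalization. Reads were aligned to mm10 with HISAT2 2.0.5, per the submitters' processing notes, after NEBNext Ultra II library preparation, per the labels. The counting program, strand setting and annotation were not given in the sources used here. Whether reads of a gene and of a gene on the opposite strand were kept apart is therefore not known. The table also gives a gene length in bases, as deposited, by an unstated method. Coordinates of 44 of the 45 genes equal GENCODE M21 (GRCm38), which gave the exon overlaps. Lengths can differ all the same. Psmg2 has 1059 bases as deposited and 1738 exon bases in M21, and the dropped gene Psmb8 has 2736 and 3381. RPKM and values with length offsets rest on the deposited length.

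The counts of the 6 libraries entered one model by group in edgeR 4.0.16 (R 4.3.3). Genes passed filterByExpr with a minimum count of 10, libraries were scaled by TMM, and the robust quasi-likelihood fit was tested with glmQLFTest, with Benjamini-Hochberg adjustment over 13480 genes. The SE is the log2 fold change divided by the square root of F. RPKM were computed from the counts, deposited length and TMM-scaled library sizes. Alternatives were other scalings and filters, protein-coding genes alone, DESeq2 1.42.0, limma 3.58.1 (voom, with and without quality weights) and leaving out each pool. In simulated ruxolitinib against control data of 13222 genes, edgeR called 67 of 90 genes changed 4-fold and 12 of 95 changed 2-fold, and 5 unchanged genes. Far fewer genes were changed there than the 55.2% called in these data. The adjustment is stricter when few genes change, so these shares do not carry over to the data.

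Values in every pool are given for up to 6 called genes per subcomplex with the smallest p, the uncalled gene with the largest change in each and the catalytic genes; further genes are given by fold change. A few genes of the lists are not reported here by name. Genes and lists were chosen with earlier results of these data known. Depth limits low genes such as Psma8, and p-values rest on 3 pools a group.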

Additional observations from a re-analysis of the deposited data

How the results depend on the processing

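The counts of proteasome genes called stayed within 1.5 times (28 to 33 lower and 4 higher) under RLE, upper-quartile and total-count scaling, removal of haemoglobin genes, other filters, protein-coding genes alone, DESeq2 and limma-voom with or without quality weights. With length offsets, added after seeing the data, 25 were lower and 3 higher. Leaving out 1 pool gave 22 to 32 lower and 4 higher. Scaling to the CD8 markers gave 0 lower and 16 higher, beside 0.549% lower and 68.9% higher among the 13480 genes tested, whose median was 1.95. Log2 fold changes that turned positive there were Psma2 0.40, Psma7 0.62, Psma6 0.27, Psma3 0.88, Psma5 0.95, Psma1 1.09, Psma4 0.85, Psmb6 0.046, Psmb1 0.24, Psmb4 0.13, Psmb2 1.04, Psmb7 1.67, Psmc5 1.08, Psmc3 1.04, Psmc1 1.18, Psmc6 1.32, Psmc2 1.35, Psmc4 1.49, Psmc3ip 1.31, Psmd13 0.25, Psmd8 0.57, Psmd14 0.90, Psmd3 1.14, Psmd9 1.000, Psmd10 1.38, Psmd7 1.32, Psmd4 1.57, Psmd6 1.62, Psmd2 1.62, Psmd12 1.75, Psmd11 1.75, Psme2b 0.087, Psmg2 0.39, Psmg1 0.81, Pomp 0.45, Adrm1 1.43, Uchl5 1.01, Sem1 0.71 and Uba1 1.31. The medians turned to 1.04 over all members tested, 0.85 for alpha, 0.13 for beta, 1.31 for Psmc, 1.48 for Psmd and 0.10 for Psmg genes. The cause was not tested; the scaling by construction adds the fall of the CD8 markers to every gene. Psmd5 gave -0.066 without ruxolitinib pool 2, 0.14 without ruxolitinib pool 3, -0.33 with length offsets and 2.001 with CD8 marker scaling, where it passed. Without 1 pool, Psmb5 over Psmb8 differed by -0.28 to 0.23 (0.23 without control pool 6, 0.07 without ruxolitinib pool 3), Psmb6 over Psmb9 by 0.91 to 1.30 and Psmb7 over Psmb10 by 2.38 to 3.23 on the log2 scale. No paired analysis was possible because the pools are numbered 1 to 3 and 4 to 6 and share no number. With 3 pools a group, differences under 2-fold can be missed. Some passed here, such as Psmd1 (0.76) and Psmd10 (-0.55), and others did not, such as Psmc4 (-0.44).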

Other observations

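Of 10 marker genes of dividing cells, Mki67 was higher, Mcm3, Mcm5 and Birc5 were lower and 6 did not pass, with a summed level of 2021, 2779 and 1774 CPM in ruxolitinib pools 1, 2 and 3, against 2273, 2469 and 2870 CPM in control pools 4, 5 and 6. These genes were chosen for mention after their values were seen. Proteasome genes lie on 16 chromosomes, with 10 of the 45 on chromosome 11, among them genes that rose (Psme3, Psme4) and genes that fell (Psmb3, Psmb6, Psmc5). Across the 43 tested genes, the level in control pools and the log2 fold change had a Spearman rho of -0.71, and across all 13480 genes it was -0.59. The control pools enter both measures, so this is a description of the table.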
